A study of Mus musculus with 9 samples.

Results

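The p53 targets and Bax described here are 10 genes, Bax, Cdkn1a, Mdm2, Ccng1, Btg2, Phlda3, Bbc3, Pmaip1, Trp53inp1 and Zmat3, taken by symbol from a table of 18148 gene symbols. All 10 were found in it. The table held liver messenger RNA of C57BL/6J mice in 9 libraries, 3 from each of 3 groups gavaged for 8 weeks. The DEHP_GTP group, called Treatment in the labels, received di(2-ethylhexyl) phthalate (DEHP), a plasticizer, at 1500 mg/kg/d in corn oil together with green tea polyphenols (GTP) at 70 mg/kg. The DEHP group received the same phthalate dose in corn oil, and the Control group received distilled water. The Control mice therefore lacked the oil as well as the phthalate, and the 2 cannot be told apart here. The design's groups given the oil or the polyphenols alone were not analysed here. The labels used here give neither age nor sex. They do not say whether each library stands for its own animal, so the p-values reflect the spread among libraries, which may be technical.

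The transcription factor p53, encoded by Trp53, is held at low protein levels in unstressed cells by the ubiquitin ligase Mdm2 and is stabilised when DNA is damaged or the cell is otherwise stressed. It then binds paired half-sites near its target genes and raises their transcription, which can halt the cell cycle, support repair or start mitochondrial apoptosis. Because p53 is controlled mainly at the protein level, its activity is often followed through target transcripts, although other factors also drive most of these genes in liver.

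Values were on the authors' scale, whose unit was not stated and which looked scaled for depth and transcript length. Values are compared between libraries of 1 gene, and levels of different genes serve only to pick a list's genes of highest level, which assumes that scaling. A gene was tested where it reached a value of 1 in at least 3 libraries, which 8 of the 10 genes did. Pmaip1 and Zmat3 were too low for testing in every group. Differences are log2 fold changes of (value + 1) from limma with Benjamini-Hochberg adjustment over 10388 tested genes, and "called" means an adjusted p below 0.05. In bulk tissue, fewer cells of a type and less RNA per cell cannot be told apart.

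RefSeq start-site windows of GRCm38.p6, which run from 250 bases before a transcription start to 50 bases after it, were found for 7 of the 10 genes (not for Pmaip1, Trp53inp1 and Zmat3), with 10 windows in all. They were searched for the p53 consensus element, 2 abutting half-sites of 10 bases each, on both strands, with at most 3 of 20 bases mismatched and the C and G of each half-site core intact. The element reads the same on both strands. Cdkn1a, Ccng1 and Bbc3 had a match, and their windows are shown for that reason, with the match in capitals.

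Cdkn1a (GRCm38.p6, chr17:29090729-29091028, plus strand, upstream start): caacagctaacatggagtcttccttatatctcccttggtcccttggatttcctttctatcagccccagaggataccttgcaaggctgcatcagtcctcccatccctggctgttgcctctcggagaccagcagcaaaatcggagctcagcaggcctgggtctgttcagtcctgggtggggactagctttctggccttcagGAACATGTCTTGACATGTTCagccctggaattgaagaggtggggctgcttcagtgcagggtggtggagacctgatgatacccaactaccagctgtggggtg
Ccng1 (GRCm38.p6, chr11:40755237-40755536, minus strand): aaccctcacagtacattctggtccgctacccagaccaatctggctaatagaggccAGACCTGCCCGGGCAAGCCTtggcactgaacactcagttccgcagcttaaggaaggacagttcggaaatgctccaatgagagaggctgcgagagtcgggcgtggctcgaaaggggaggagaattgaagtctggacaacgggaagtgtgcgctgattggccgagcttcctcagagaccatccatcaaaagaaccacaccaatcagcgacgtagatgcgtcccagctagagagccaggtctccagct
Bbc3 (GRCm38.p6, chr7:16309333-16309632, plus strand, the first of 3 starts): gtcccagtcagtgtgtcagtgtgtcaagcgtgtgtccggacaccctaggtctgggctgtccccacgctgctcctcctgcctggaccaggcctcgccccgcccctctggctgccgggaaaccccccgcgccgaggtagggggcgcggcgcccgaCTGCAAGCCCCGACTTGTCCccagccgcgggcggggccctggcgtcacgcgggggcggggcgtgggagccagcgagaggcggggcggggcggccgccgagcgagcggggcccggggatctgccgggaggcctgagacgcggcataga

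The Cdkn1a element lay from -51 to -32 relative to the start base, counted as 0, and differed from the consensus at 1 of 20 bases. The Ccng1 element lay from -195 to -176 and also had 1 mismatch, and the Bbc3 element lay from -97 to -78 with 3 mismatches. Among all 32851 RefSeq windows of this length, 22 (0.067%) held an element with at most 1 mismatch and 453 (1.38%) one with at most 3. Bax is shown because its transcript was called in DEHP livers, and its window held an exact half-site, here in capitals, but no paired element.

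Bax (GRCm38.p6, chr7:45466849-45467148, minus strand): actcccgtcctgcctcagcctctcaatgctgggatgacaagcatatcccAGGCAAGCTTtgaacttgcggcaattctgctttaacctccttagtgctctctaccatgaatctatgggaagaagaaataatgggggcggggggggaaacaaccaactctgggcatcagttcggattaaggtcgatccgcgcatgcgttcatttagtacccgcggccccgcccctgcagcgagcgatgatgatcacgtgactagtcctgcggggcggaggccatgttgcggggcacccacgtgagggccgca

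An exact half-site was present in 8.36% of all windows, so 1 in the Bax window describes the sequence and no more. The Mdm2 window also held an exact half-site, while the windows of Btg2 and Phlda3 and the other starts of Cdkn1a and Bbc3 held neither form. A match is a description of letters, and no match says nothing of binding elsewhere in a gene.

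Control replicates 1 and 2 stood apart from the other 7 libraries by transcripts of fat cells, so fits with Control replicate 3 as the lone control are given beside the results they change.

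In DEHP against Control livers, 4 of the 8 tested genes rose and 0 fell. Those that rose were the mitochondrial pore former Bax, the BH3-only death activator Bbc3, the p53 cofactor Trp53inp1 and the cyclin Ccng1. Over all tested genes 21.6% were called higher, 3.91% lower and 25.5% in either direction. The increases of these 4 genes ran between 1.38-fold for Ccng1 and 2.30-fold for Trp53inp1 as ratios of group means. Cdkn1a, the classical arrest gene of the pathway, and Mdm2 did not pass. Without overlap between the groups' libraries, 5 of the 8 were higher, the called 4 and Mdm2, and 0 were lower, against 33.8% and 7.65% of all tested genes. The median over the 8 tested genes was 0.55 on the log2 scale, against 0.12 over all genes tested.

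That upward median of the whole table depended on scaling. The Mup genes, which encode abundant urinary proteins, took 6.53% to 11.6% of the summed values in DEHP_GTP, 2.37% to 8.49% in DEHP and 16.1% to 20.3% in Control libraries. In DEHP against Control livers the median of all genes was -0.0043 after quantile normalization, 0.01 after centring on the median gene and -0.06 after rescaling without the Mup genes. As deposited, the values gave 2248 genes called higher and 406 lower over all tested, 922 and 833 after quantile normalization, 1271 and 736 after centring, and 802 and 1000 without the Mup genes. Of the 8 genes, 3 were called higher after quantile normalization, 3 after centring and 1, Trp53inp1, without the Mup genes, and 0 were called lower under any of these.

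**Figure D1:**
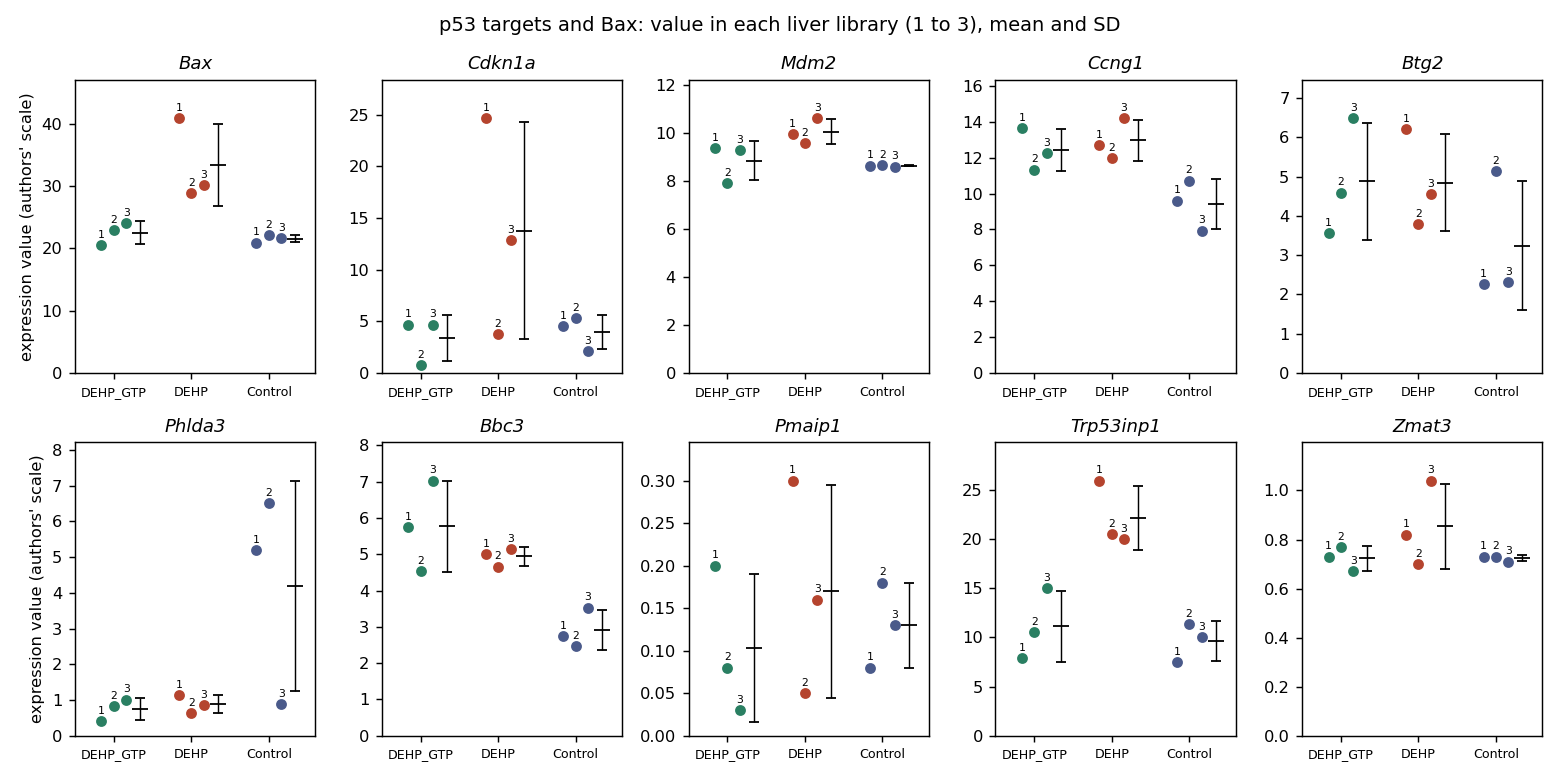
Value of each of the 10 genes in each liver library on the authors' scale (vertical axis, from 0), by group, with the replicate number above each point and the group mean and SD (n = 3) as a bar beside the points. Bax and Trp53inp1 were high in the 3 DEHP libraries, Bbc3 and Ccng1 were high in the 6 phthalate libraries, and Phlda3 was high in Control libraries 1 and 2.

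In DEHP_GTP against DEHP livers, limma called 0 of the 8 genes and 0 of all 10388 (0.0%). At an unadjusted p below 0.05 stood 2 of the 8, Bax and Trp53inp1, against 1524 genes (14.7%) over the table, and limma without its trend and robust estimates also called 0. Bax, Trp53inp1 and Mdm2 were lower in every DEHP_GTP library than in every DEHP library. Over all tested genes, 10.4% were lower without overlap in this comparison and 8.89% higher.

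In DEHP_GTP against Control livers, 1 of the 8 genes, Bbc3, rose and 0 fell, where 9.68% of all tested genes were called higher, 0.76% lower and 10.4% in either direction. Without overlap 2 were higher, Bbc3 and Ccng1, and 0 lower, against 31.8% and 4.29% of all tested genes. The comparisons share groups of libraries, so each gene's values in the 3 groups are given side by side below, by the role of the gene.

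**Figure D2:**
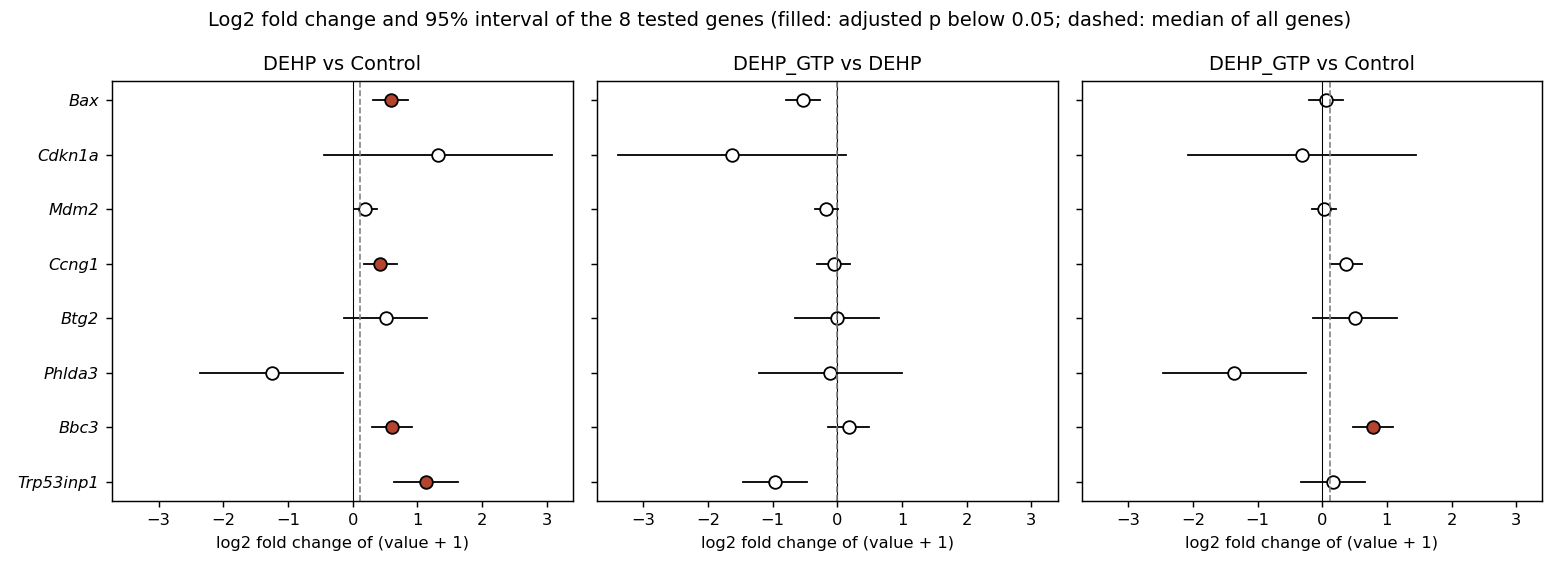
Log2 fold change of (value + 1) for the 8 tested genes in the 3 comparisons (horizontal axis), with 95% intervals from limma. Filled points had an adjusted p below 0.05, the dashed line marks the median of all tested genes, and Cdkn1a has the widest interval in each panel.

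Of the genes that act on the mitochondrial death pathway, Bax encodes the BCL2-family effector that inserts into the outer mitochondrial membrane and releases cytochrome c. Bax values were 20.49, 22.99 and 24.11 in DEHP_GTP livers, 40.96, 28.94 and 30.17 in DEHP livers, and 20.95, 22.11 and 21.60 in Control livers. The DEHP libraries were above all 6 others, while the DEHP_GTP and Control libraries overlapped. Bax averaged 33.4 ± 6.61 in DEHP and 21.6 ± 0.581 in Control livers (SD, n = 3 each), a ratio of 1.55, and rose by 0.59 on the log2 scale (SE 0.12, adjusted p = 0.00625 from limma). The DEHP_GTP mean was 22.5 ± 1.85 (SD, n = 3), and the difference from DEHP was -0.53 (SE 0.12, 95% interval -0.80 to -0.26, adjusted p = 0.127 from limma), which did not pass. Against Control the DEHP_GTP difference was 0.06, with a 95% interval of -0.21 to 0.33. GENCODE M21 annotates another gene, Gm45808, across Bax on the same strand, and the sources used here do not say how reads were shared between them.

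Bbc3 encodes PUMA, a BH3-only protein that binds anti-apoptotic BCL2 proteins and so frees Bax. Its values were 5.75, 4.53 and 7.03 in DEHP_GTP livers, 5.01, 4.66 and 5.15 in DEHP livers, and 2.75, 2.46 and 3.53 in Control livers. All 6 phthalate libraries were above the Control libraries, and the 2 phthalate groups overlapped. Bbc3 rose by 0.61 (SE 0.14, adjusted p = 0.0111 from limma) in DEHP against Control livers, a ratio of means of 1.696. Against Control it rose in DEHP_GTP livers by 0.78 (SE 0.14, adjusted p = 0.0127 from limma), a ratio of means of 1.98. The difference between DEHP_GTP and DEHP was 0.17, with a 95% interval of -0.14 to 0.49.

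Pmaip1 encodes NOXA, another BH3-only protein, and was near the lower end of the scale throughout. Its values were 0.20, 0.08 and 0.03 in DEHP_GTP livers, 0.30, 0.05 and 0.16 in DEHP livers, and 0.08, 0.18 and 0.13 in Control livers. The 3 groups overlapped, and the gene was not tested at the filter used.

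The calls of Bax and Bbc3 in DEHP against Control livers were lost under 1 of the scalings tried. They remained after quantile normalization, centring on the median gene or rescaling to equal totals. The adjusted p there was up to 0.0389 for Bax and 0.0487 for Bbc3 from limma. Both held without any 1 of the Control libraries, with adjusted p up to 0.0269 for Bax and 0.0425 for Bbc3 from limma. Rescaling the libraries without the Mup genes gave Bax 0.38 (adjusted p = 0.0502 from limma) and Bbc3 0.44 (adjusted p = 0.0622). With Control replicate 3 as the lone control, assumed to vary like the other groups, Bax was at 0.59 and Bbc3 at 0.39. The SE of Bax was 0.19 in that fit, against 0.12 with all Control libraries. In that fit Bbc3 in DEHP_GTP against Control livers was at 0.56 (adjusted p = 0.175), and centring on the median gene gave 0.67 (adjusted p = 0.0541).

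Among the genes that restrain the cell cycle, Cdkn1a encodes p21, an inhibitor of cyclin-dependent kinases and the target by which p53 activity is most often read. Cdkn1a values were 4.67, 0.76 and 4.67 in DEHP_GTP livers, 24.69, 3.73 and 12.87 in DEHP livers, and 4.52, 5.28 and 2.15 in Control livers. DEHP replicates 1 and 3 were above all other libraries, and DEHP replicate 2 lay inside the Control range. The DEHP mean of 13.8 ± 10.5 and the Control mean of 3.98 ± 1.63 (SD, n = 3 each) gave a ratio of 3.46, the highest among the 10 genes, but the difference of 1.32 had an SE of 0.74 and an adjusted p of 0.245 from limma. Its 95% interval ran from -0.45 to 3.08, so neither no change nor a large increase was outside it. The difference was 0.76 without DEHP replicate 1 and 1.98 without DEHP replicate 2, and it passed in 0 of 19 other settings. GENCODE M21 also annotates a transcript on the other strand at Cdkn1a, whose reads cannot be told apart from those of Cdkn1a if counting did not use strand. In DEHP_GTP against DEHP livers it was -1.63 (SE 0.74, adjusted p = 0.378 from limma), with -1.08 without DEHP replicate 1, -1.07 without DEHP_GTP replicate 2 and -2.30 without DEHP replicate 2.

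Ccng1 encodes cyclin G1, which recruits a phosphatase to Mdm2 and takes part in feedback on p53. Ccng1 values were 13.66, 11.33 and 12.24 in DEHP_GTP livers, 12.71, 11.96 and 14.21 in DEHP livers, and 9.60, 10.72 and 7.93 in Control livers. Like those of Bbc3, its 6 phthalate libraries were all above its Control libraries. Ccng1 rose by 0.43 (SE 0.11, adjusted p = 0.0204 from limma) in DEHP against Control livers. Its DEHP_GTP difference from Control was 0.37 (SE 0.11, adjusted p = 0.0639 from limma) and did not pass, except after rescaling to equal totals (0.45, adjusted p = 0.0295). The DEHP call was lost without Control replicate 1 (0.45, adjusted p = 0.0526), without Control replicate 3 (0.32, adjusted p = 0.0707) and without DEHP replicate 3 (0.36, adjusted p = 0.0708). It was also lost after quantile normalization (0.27), centring on the median gene (0.32) and rescaling without the Mup genes (0.23).

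Btg2 encodes an antiproliferative protein that helps remove the poly(A) tails of messenger RNAs. Btg2 values were 3.56, 4.59 and 6.49 in DEHP_GTP livers, 6.21, 3.78 and 4.55 in DEHP livers, and 2.26, 5.14 and 2.32 in Control livers. Control replicate 2 lay among the phthalate libraries and the other Control libraries lay below all of them. The difference was 0.51 (SE 0.28, adjusted p = 0.229 from limma) in DEHP against Control livers and passed without Control replicate 2, at 0.81 (adjusted p = 0.0352). Btg1, a relative with similar activity that is named outside the rule for other genes, rose by 0.98 (SE 0.16, adjusted p = 0.0023 from limma). It averaged 10.2 ± 1.695 in DEHP_GTP, 14.8 ± 1.46 in DEHP and 7.15 ± 1.67 in Control livers (SD, n = 3 each). Among 4 tested relatives of Btg2 it was the 1 called gene, where 21.6% of all tested genes were called higher, and 1 gene of the list was called higher in each of the 19 other settings. Tob1 and Tob2, the antiproliferative relatives of highest level in the list, were at 0.03 and -0.36.

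Of the genes that act on p53 itself or on survival signalling, Mdm2 encodes the ligase that marks p53 for degradation and is itself a target, closing a feedback loop. Mdm2 values were 9.35, 7.89 and 9.26 in DEHP_GTP livers, 9.93, 9.58 and 10.61 in DEHP livers, and 8.63, 8.66 and 8.59 in Control livers. The DEHP libraries were above all 6 others, but the ratio of means to Control was 1.16. The difference of 0.20 (SE 0.08, 95% interval 0.01 to 0.38, adjusted p = 0.106 from limma) did not pass, and it was close to the median of all genes at 0.12. After rescaling without the Mup genes it was 0.0012.

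Trp53inp1 encodes a stress protein that promotes p53 phosphorylation and also takes part in autophagy. Trp53inp1 values were 7.89, 10.50 and 14.99 in DEHP_GTP livers, 25.95, 20.54 and 20.03 in DEHP livers, and 7.45, 11.37 and 10.05 in Control livers. The DEHP libraries were above all 6 others, and the DEHP_GTP and Control libraries overlapped. Trp53inp1 rose by 1.13 (SE 0.22, adjusted p = 0.00671 from limma) in DEHP against Control livers, the largest change among the called members. The call held in 18 of 19 other settings and was lost with the lone control, where the difference was 1.06 (adjusted p = 0.0773). In DEHP_GTP against DEHP livers it was at -0.97 (SE 0.22, 95% interval -1.47 to -0.47, adjusted p = 0.131 from limma), and did not pass. Against Control the DEHP_GTP difference was 0.17, with a 95% interval of -0.33 to 0.67.

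Zmat3 encodes an RNA-binding zinc finger protein induced by p53 in many mouse tissues. Zmat3 values were 0.73, 0.77 and 0.67 in DEHP_GTP livers, 0.82, 0.70 and 1.04 in DEHP livers, and 0.73, 0.73 and 0.71 in Control livers. It reached 1 in 1 library, DEHP replicate 3, and was not tested at the filter used.

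Phlda3 encodes a pleckstrin homology domain protein that competes with the kinase AKT for membrane lipids. Phlda3 values were 0.41, 0.83 and 1.01 in DEHP_GTP livers, 1.14, 0.63 and 0.86 in DEHP livers, and 5.19, 6.52 and 0.89 in Control livers. Control replicates 1 and 2 stood above the other 7 libraries, and Control replicate 3 lay among the phthalate libraries. The difference was -1.25 (SE 0.47, adjusted p = 0.093 from limma) in DEHP against Control and -1.36 (SE 0.47, adjusted p = 0.108) in DEHP_GTP against Control livers, and neither passed. Without Control replicate 3 both were called, at -1.87 (adjusted p = 0.00102 from limma) and -1.98 (adjusted p = 0.00191). With Control replicate 3 as the lone control they were -0.02 and -0.13.

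**Figure D3:**
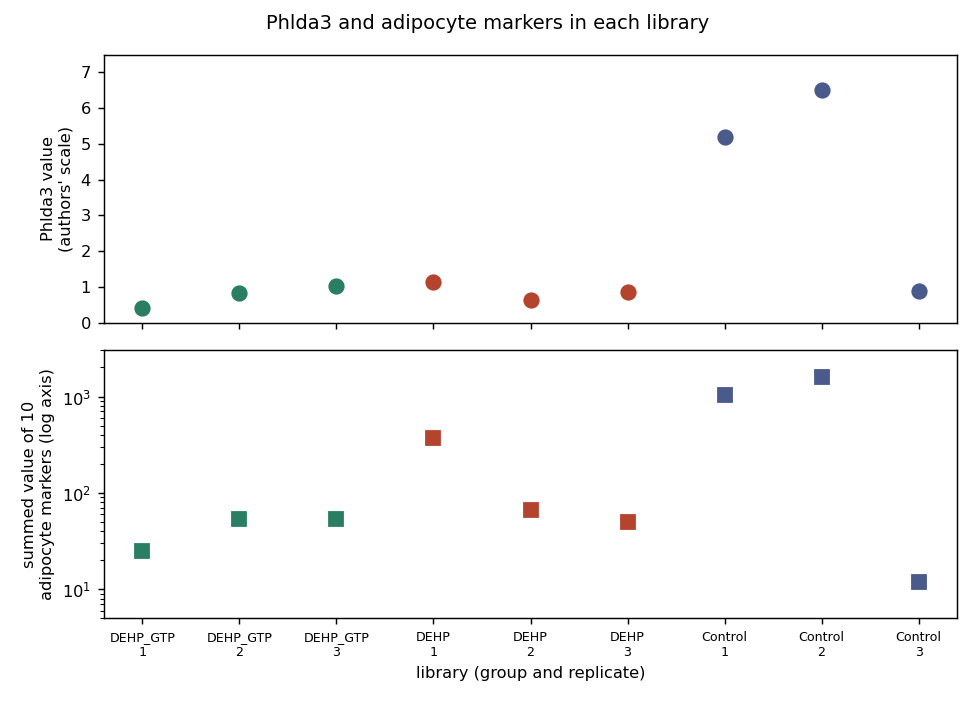
Phlda3 on the authors' scale (upper panel) and the summed value of 10 adipocyte markers on a log axis (lower panel) in each of the 9 libraries. Control libraries 1 and 2, with Phlda3 at 5.19 and 6.52, also have the highest marker sums, 1032 and 1603.

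The same 2 Control libraries carried transcripts of fat cells. The 10 adipocyte markers summed to 25.2 to 54.1 in DEHP_GTP, 49.5 to 368 in DEHP and 11.9 to 1603 in Control livers, with the 2 highest sums, 1032 and 1603, in Control replicates 1 and 2. None of the 10 was listed at 0 in these libraries, while 4 to 7 were listed at 0 in each of the others. The adipocyte hormone Adipoq was at 33.69 and 61.04 in these Control libraries and listed at 0 in the other 7. The sum of 368 in DEHP replicate 1 was mostly 1 gene, Fabp4, at 361.68. Fabp4 was at 470.21 and 688.64 in Control replicates 1 and 2. Phlda3 was high in these 2 libraries alone, so any fit without both must bring its difference near 0. Whether fat cells contributed to Phlda3 was not tested. The lone-control values of Phlda3 above, near 0, are those without both of these libraries. In the same DEHP against Control fit Bax was at 0.59, Trp53inp1 at 1.06 and Ccng1 at 0.64 (adjusted p = 0.041 from limma), and Ccng1 was the 1 of the 8 genes that was called.

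The members also ranked alike among the DEHP libraries. DEHP replicate 2 was the lowest DEHP library for 9 of the 10 genes, all except Trp53inp1, where replicate 3 was lower. The 9 include Pmaip1 and Zmat3, which were too low for testing, while the shares below are over tested genes. Some gaps were small, as for Mdm2, at 9.58 in replicate 2 and 9.93 in replicate 1. DEHP replicate 1 was the highest for 6 of the 10 and replicate 3 for the other 4. Over all tested genes, replicate 2 was the lowest DEHP library for 47.6% and replicate 1 the highest for 49.2%, and whether the members' order differs from that of the table was not tested. Markers of Kupffer cells, the liver macrophages, summed to 111 in DEHP replicate 1, 74.4 in replicate 2 and 90.5 in replicate 3. Stellate cell markers had the same order, with sums of 143, 82.0 and 107 in these libraries. Replicate 2 was also lowest for endothelial markers (81.8) and lymphocyte markers (2.58). Other lists ranked otherwise over replicates 1, 2 and 3. Cholangiocyte markers summed to 64.2, 36.1 and 19.5 and adipocyte markers to 368, 66.5 and 49.5, with replicate 3 lowest. Red blood cell markers summed to 290, 815 and 528, with replicate 2 highest, and hepatocyte markers to 70001, 70008 and 71439. The 8 Kupffer and macrophage markers summed to 65.5 to 116 in DEHP_GTP, 74.4 to 111 in DEHP and 57.8 to 66.3 in Control livers. All 8 had a difference above 0 in DEHP against Control livers, from 0.0058 to 0.69, where the median of all tested genes was 0.12. All 8 were also above 0 in DEHP_GTP against Control livers, with a median of 0.32 against 0.11 over all tested genes. Of the 8, 1 was called under DEHP, Cd5l, where 21.6% of all tested genes were called higher. The count of called Kupffer markers was 0 after quantile normalization, centring or rescaling without the Mup genes, with the replicate block, without a filter, with the lone control, and without any 1 of the Control libraries, DEHP replicate 1, DEHP replicate 3 or DEHP_GTP replicate 1. It was 4 without DEHP_GTP replicate 2 or with only the 6 libraries compared. The highest sum, 116 in DEHP_GTP replicate 2, stood in a library with Bax at 22.99 and Cdkn1a at 0.76, its lowest value. Whether macrophage transcripts contributed to the other differences was not tested.

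Trp53 itself was not called in any comparison. Its values were 10.86, 10.42 and 12.74 in DEHP_GTP livers, 13.25, 8.97 and 13.57 in DEHP livers, and 10.47, 12.11 and 11.87 in Control livers, so the 3 groups overlapped. The difference was 0.03 (SE 0.14, adjusted p = 0.898 from limma) in DEHP against Control livers and -0.05 (SE 0.14, adjusted p = 0.906) in DEHP_GTP against DEHP livers. Mdm4, the Mdm2 relative that blocks p53 activity, was at 0.22 (SE 0.09, adjusted p = 0.11 from limma) in DEHP against Control livers. Of 14 tested genes of p53 and its regulators, 2 rose and 0 fell under DEHP, where 21.6% of all tested genes were called higher and 3.91% lower. Both were ribosomal proteins that can bind Mdm2, Rpl11 by 0.45 (SE 0.10) and Rpl5 by 0.31 (SE 0.10), and the list median of 0.09 was below the 0.12 of all genes. The count under DEHP was 1 higher without any 1 of the Control libraries or DEHP replicate 1, after rescaling to equal totals, with the replicate block and without a filter. It was 3 higher without DEHP replicate 2, 1 higher and 1 lower after centring, 0 with the lone control, and 0 higher and 1 lower after quantile normalization or rescaling without the Mup genes. None of the 14 was called in the other comparisons, except 1 called higher in DEHP_GTP against Control livers after rescaling to equal totals.

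Other p53 targets, 35 genes of which 26 were tested, were more often higher than lower under DEHP. In DEHP against Control livers 12 of the 26 rose and 1 fell, with a median of 0.30, where 21.6% of all tested genes were called higher and 3.91% lower. Perp, a membrane protein of p53-dependent apoptosis, averaged 63.7 ± 5.10 in DEHP_GTP, 71.6 ± 4.11 in DEHP and 48.4 ± 0.618 in Control livers (SD, n = 3 each) and rose by 0.56 under DEHP (SE 0.08, adjusted p = 0.00116 from limma). Ccng2, a relative of Ccng1 that other factors such as FOXO proteins also induce, averaged 5.62 ± 1.11 in DEHP_GTP, 7.52 ± 0.499 in DEHP and 3.66 ± 0.567 in Control livers (SD, n = 3 each) and rose by 0.88 under DEHP (SE 0.13, adjusted p = 0.00161). Sulf2, an extracellular sulfatase, rose by 0.94 (SE 0.14), and Cd82, a tetraspanin, by 0.45 (SE 0.07). The 1 that fell was the kinase Plk3, by 0.37 (SE 0.12, adjusted p = 0.0436), named after its value was seen. In DEHP_GTP against Control livers 6 of the 26 rose and 0 fell, among them Perp, Ccng2, Sulf2 and Cd82, where 9.68% of all tested genes were called higher and 0.76% lower, and in DEHP_GTP against DEHP livers 0 were called.

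The count of other p53 targets called under DEHP fell with single libraries. It was 6 higher and 1 lower without Control replicate 1, 8 higher and 0 lower without Control replicate 3 or without DEHP replicate 3, and 8 higher and 1 lower without DEHP replicate 1. It was 6 higher and 0 lower with Control replicate 3 as the lone control, 7 higher and 2 lower after quantile normalization, and 5 higher and 1 lower after rescaling without the Mup genes. The lower count was also 0 after rescaling to equal totals, without a filter, by limma without trend and robust estimates, with only the 6 libraries compared, with the replicate block, and without Control replicate 2, DEHP replicate 2, DEHP_GTP replicate 2 or DEHP_GTP replicate 3. In DEHP_GTP against Control livers the count was 2 higher without any 1 of the Control libraries or without DEHP_GTP replicate 3, 3 higher without DEHP_GTP replicate 2, DEHP replicate 2 or DEHP replicate 3, and 4 higher without DEHP_GTP replicate 1. It was 0 with the lone control, 1 after quantile normalization or centring, 2 after rescaling without the Mup genes, and 3 with the replicate block, without a filter, by limma without trend and robust estimates or with only the 6 libraries compared.

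**Figure D4:**
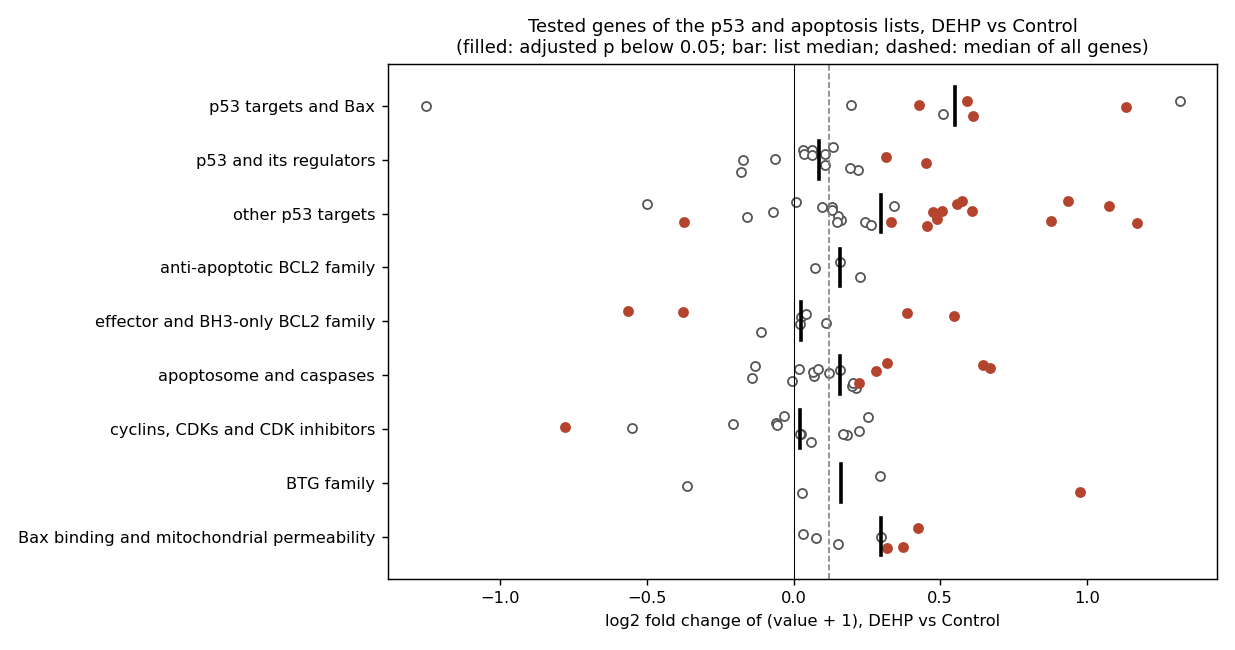
Log2 fold change of (value + 1) in DEHP against Control livers (horizontal axis) for every tested gene of each p53 and apoptosis list. Filled points had an adjusted p below 0.05, black bars are list medians and the dashed line is the median of all tested genes. The other p53 targets hold 12 filled points above 0 and 1 below.

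Changes among the BCL2 relatives of Bax ran in both directions. Bak1, the effector most like Bax, was at 0.02 (SE 0.12, adjusted p = 0.912 from limma) in DEHP against Control livers, with means of 8.70 ± 0.497 in DEHP_GTP, 8.28 ± 1.30 in DEHP and 8.12 ± 1.18 in Control livers (SD, n = 3 each). Of 9 tested effectors and BH3-only proteins besides the members, 2 rose and 2 fell under DEHP, where 21.6% of all tested genes were called higher and 3.91% lower. Bok, another effector, rose by 0.55 (SE 0.13) and Bad by 0.39 (SE 0.10), while Bmf fell by 0.57 (SE 0.17) and Bnip3 by 0.38 (SE 0.10). The counts were 2 and 0 without Control replicate 2 or DEHP replicate 3, 1 and 0 without Control replicate 3, 1 and 1 without Control replicate 1 or DEHP replicate 1, 2 and 1 with the replicate block or without a filter, 1 and 2 after quantile normalization, 0 and 2 after rescaling without the Mup genes, and 0 and 0 with the lone control. Of 3 tested anti-apoptotic members 0 were called under DEHP, with Mcl1 at 0.16 and Bcl2l1 at 0.07, and Bcl2 was too low for testing, at 0.09 to 0.30 over the 9 libraries. Mcl1 rose by 0.36 (SE 0.08, adjusted p = 0.0229 from limma) in DEHP_GTP against Control livers, the 1 called gene of 3 in that list, where 9.68% of all tested genes were called higher. That call was lost without any 1 of the Control libraries, without DEHP_GTP replicate 2, with the lone control, after quantile normalization, after centring and after rescaling without the Mup genes.

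Downstream of Bax, 5 of 17 tested genes of the apoptosome and caspases rose under DEHP and 0 fell, against 21.6% called higher over the table. Cycs, which encodes the cytochrome c that Bax pores release, rose by 0.64 (SE 0.12), the executioner caspase Casp6 by 0.67 (SE 0.11), Aifm1 by 0.32 (SE 0.07) and Htra2 by 0.28 (SE 0.08), all mitochondrial or caspase proteins. Casp9, the initiator on the apoptosome, was at -0.14 (SE 0.10, adjusted p = 0.345 from limma) and did not pass. The count under DEHP was 3 without Control replicate 3 or without DEHP replicate 3, 3 with the replicate block or only the 6 libraries compared, and 2 after quantile normalization, centring, rescaling without the Mup genes or with the lone control. Under DEHP_GTP against Control 3 of the 17 rose, among them Casp6 and Aifm1, where 9.68% of all tested genes were called higher. That count was 1 after quantile normalization or centring and without Control replicate 1, Control replicate 3 or DEHP_GTP replicate 2, 2 without Control replicate 2 or DEHP_GTP replicate 3, without a filter or after rescaling without the Mup genes, and 0 with the lone control.

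Of 7 tested genes for mitochondrial permeability and Bax binding, 3 rose under DEHP and 0 fell, where 21.6% of all tested genes were called higher and 3.91% lower. They were the channel genes Vdac3 by 0.42 (SE 0.07) and Vdac1 by 0.32 (SE 0.09), and Tmbim6, the Bax inhibitor BI-1, by 0.37 (SE 0.07). Under DEHP_GTP against Control 4 rose, these 3 and Ppif, which encodes cyclophilin D, by 0.42 (SE 0.12), where 9.68% of all tested genes were called higher. After quantile normalization, after rescaling without the Mup genes or with the lone control 0 of the 7 were called in either comparison. The DEHP_GTP count was also 0 without any 1 of the Control libraries, without DEHP_GTP replicate 2 or 3, and after centring. It was 2 with the replicate block or by limma without trend and robust estimates and 1 without a filter, and the DEHP count was 1 after centring and 2 without Control replicate 1 or DEHP replicate 3.

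Of 13 tested cyclins, cyclin-dependent kinases and their inhibitors, the machinery that p21 restrains, 0 rose and 1 fell under DEHP, where 21.6% of all tested genes were called higher and 3.91% lower. It was the cyclin Ccne1, by 0.78 (SE 0.20, adjusted p = 0.016 from limma), with means of 1.16 ± 0.505 in DEHP_GTP, 0.63 ± 0.352 in DEHP and 1.76 ± 0.282 in Control livers (SD, n = 3 each), and it was named after its value was seen. The list's genes of highest level were Cdk4, at 0.25, and Ccnd3, at 0.22, and neither passed. Without Control replicate 2, without DEHP replicate 3 or with the lone control the count was 0, and it was 2 lower without DEHP replicate 1 or after centring, and 1 higher and 1 lower without a filter.

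The genes whose profile over the 9 libraries was most like that of Bax were Cep83, Mapk15 and Acnat1. Likeness was the mean absolute difference of z-scored log2 values, which was 0.177, 0.179 and 0.2 for these genes, over 9 libraries, against a median of 0.9 over 10121 genes ranked. Trp53inp1 was the most like Bax among the members, with 0.303, at rank 40. Mapk15 was at 5.90, 7.98 and 8.32 in DEHP_GTP, 16.27, 10.30 and 10.94 in DEHP, and 6.96, 5.76 and 7.14 in Control livers. The genes most like Cdkn1a were Il4ra, Ube2g2 and Gtpbp3, with 0.199, 0.216 and 0.246. Mdm2 was the nearest member to Cdkn1a, with 0.480, at rank 125. Bbc3 was at 0.881 from Bax, near the median of all genes.

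The 8 hepatocyte markers were present in every library. They summed to 67587 to 78950 in DEHP_GTP, 70001 to 71439 in DEHP and 84226 to 89266 in Control livers, and none was listed at 0. Of these, 0 were called higher and 2 lower under DEHP, Serpina1a and Alb, where 21.6% of all tested genes were called higher and 3.91% lower. In DEHP_GTP against Control livers 1 was called lower, where 0.76% of all tested genes were. The DEHP counts were 0 higher and 5 lower after rescaling without the Mup genes, 1 and 2 after quantile normalization, 0 and 3 without DEHP_GTP replicate 2 or 3 or with only the 6 libraries compared, and 0 and 0 with the lone control. The DEHP_GTP count was 0 after quantile normalization or centring, with the lone control, with the replicate block, without a filter, and without any 1 of the Control libraries, DEHP_GTP replicate 2 or DEHP_GTP replicate 3. Library totals ran from 789076 to 863300. Endothelial markers summed to 70.7 to 82.4 in DEHP_GTP, 81.8 to 112 in DEHP and 76.0 to 96.6 in Control livers, and stellate cell markers to 83.6 to 133, 82.0 to 143 and 85.0 to 118 in the same groups. Cholangiocyte markers summed to 19.8 to 68.7 in DEHP_GTP, 19.5 to 64.2 in DEHP and 22.4 to 29.7 in Control livers, and lymphocyte markers to 2.12 to 2.95, 2.58 to 4.02 and 3.26 to 4.48 in these groups. Red blood cell markers summed to 477 to 711 in DEHP_GTP, 290 to 815 in DEHP and 628 to 1285 in Control livers. In these 5 lists, and among the adipocyte markers, 0 genes were called under DEHP as deposited, where 25.5% of all tested genes were called. Only 4 of 10 adipocyte, 2 of 5 red blood cell and 2 of 8 lymphocyte markers passed the filter and were tested. The 4 adipocyte markers had a median of -2.07 in DEHP against Control livers. In DEHP_GTP against Control livers 1 of 2 tested lymphocyte markers was called lower, where 0.76% of all tested genes were. Under DEHP 1 endothelial and 1 red blood cell marker were called lower after quantile normalization, 1 red blood cell marker after rescaling without the Mup genes, by limma without trend and robust estimates or without DEHP_GTP replicate 1, and 2 without DEHP replicate 2. Without Control replicate 3, 3 adipocyte markers and 1 stellate cell marker were called lower in both comparisons with Control. Limma without trend and robust estimates called 2 adipocyte markers lower under DEHP, and the fit without a filter called 1 lymphocyte marker lower. The lymphocyte call in DEHP_GTP against Control livers was lost with the lone control, with the replicate block, and without any 1 of the Control libraries, DEHP_GTP replicate 2 or DEHP_GTP replicate 3. Without DEHP replicate 2, 1 lymphocyte marker was called lower in DEHP_GTP against DEHP livers.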

How the data were processed

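The authors deposited 1 table holding an expression signal, never negative, for every gene symbol in each library. Its values look scaled for depth and transcript length, as FPKM or TPM are, but which was not stated. Per the submitters' processing notes, mm9, CASAVA 1.7 and limma were used, in roles not stated. The aligner, the counter, its use of strand and the annotation are not named there. Read depth is unknown, so no counting interval is given.

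One limma model (version 3.58.1, R 4.3.3, trend and robust variance) was fitted to log2(value + 1) of all 9 libraries, which makes changes of low genes look smaller. The filter asked for 1 or more in 3 or more libraries and passed 10388 genes. Each comparison was adjusted by Benjamini-Hochberg over these genes. The code was tested on simulated data.

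The members and lists were chosen with earlier results of these data known. The text names all members, and Trp53, Mdm4, Bak1, Bcl2, Bcl2l1, Mcl1 and Casp9. From each other list besides the cell type markers it names up to 4 called genes in order of adjusted p. Where fewer than 2 were called, it names the 2 of highest level. Of the cell type markers it names Serpina1a, Alb, Cd5l and Fabp4 by that rule. Adipoq, which was not tested, is named outside it, and other markers that the rule picks are left out. Some genes are not reported here. Alternatives were other scalings, another pseudocount, no filter, plain limma, 6 libraries, a replicate block, leaving out each library, and Control replicate 3 alone. List counts under these were chosen after seeing the data. RefSeq windows are of GRCm38.p6, another build than mm9.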

Additional observations from a re-analysis of the deposited data

How the results depend on the processing

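Over 448 refits of the 8 tested genes' fold changes under the alternatives, 410 kept their direction and their side of the threshold, 13 lost a call, 4 gained one and 21 changed sign, each of the last in a difference that was not called. The number of the 8 genes called in DEHP against Control livers was 4, and 1 after rescaling without the Mup genes, 1 with Control replicate 3 as the lone control, and 3 to 5 without single libraries. In DEHP_GTP against Control livers 1 was called, with 2 after scaling to equal totals and 0 after centring on the median gene. The count without single libraries was 1 to 2. Without Control replicate 3 Phlda3 was called lower in both comparisons with Control. The calls there were 3 higher and 1 lower in DEHP, and 1 higher and 1 lower in DEHP_GTP livers. In DEHP_GTP against DEHP livers 0 were called under each alternative run. Sign changes in DEHP_GTP against DEHP livers were, after rescaling to equal totals and without the Mup genes, Ccng1 at 0.0172 and 0.0592 and Btg2 at 0.0655 and 0.1023. Without single libraries Ccng1 ran from -0.1246 to 0.005, Btg2 from -0.1906 to 0.1674 and Phlda3 from -0.2155 to 0.0403. In DEHP_GTP against Control livers quantile normalization, centring and rescaling without the Mup genes gave Bax -0.0944, -0.0588 and -0.0272 and Mdm2 -0.1064, -0.0901 and -0.053, and the lone control gave Cdkn1a 0.2854. Without single libraries Cdkn1a ran from -0.617 to 0.2464, Mdm2 from -0.0115 to 0.0982 and Trp53inp1 from -0.0534 to 0.3701. The cause of these changes was not tested. Over the whole table the calls in DEHP against Control livers numbered 2654, against 757 with the lone control, 1755 after quantile normalization and 1703 without Control replicate 1. In DEHP_GTP against Control livers they numbered 1085, against 10 with the lone control, 254 without DEHP_GTP replicate 2, 276 after centring and 2021 after rescaling to equal totals, and in DEHP_GTP against DEHP livers 0, against up to 86 without DEHP replicate 2. Deviations of same-numbered libraries from their group means had correlations from -0.263 to 0.17. Those of differently numbered libraries ran from -0.139 to 0.258. With 3 libraries a group the deviations sum to 0, so these correlations depend on each other. Whether the numbers pair libraries was not tested. With the replicate block 4, 0 and 1 of the 8 genes were called in DEHP against Control, DEHP_GTP against DEHP and DEHP_GTP against Control livers, and 2271, 0 and 578 genes over the table. Without a filter Pmaip1 and Zmat3 were tested and not called in any comparison. Read depth is unknown, which limits what can be said of both.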
